A study of Arabidopsis thaliana with 47 samples.

Results

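Transcripts and MORC7 binding were followed at 9 genes of the salicylic acid defence pathway of Arabidopsis thaliana, which were the receptor genes SNC1 (AT4G16890) and RPP4 (AT4G16860), the signalling genes EDS1 (AT3G48090), PAD4 (AT3G52430), SID2 (AT1G74710) and NPR1 (AT1G64280), and the response genes PR1 (AT2G14610), PR2 (AT3G57260) and PR5 (AT1G75040). The genes were chosen by name and locus identifier for their known roles in the pathway, and they are 9 of the 33602 genes listed in the RNA-seq tables. They and the lists of other pathway genes below were chosen with earlier results of these data known, so their counts and medians are descriptive. The study asked how Microrchidia (MORC) proteins, a family of GHKL-type ATPases, take part in RNA-directed DNA methylation (RdDM), the plant pathway in which small RNAs direct DNA methylation. It holds 47 samples, of which the RNA-seq libraries labelled hex, nrpe1 and WT (3 each) and 22 ChIP-seq peak lists were used here.

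All plants were of the Columbia-0 background. The hex plants carry the alleles morc7-1, morc6-3, morc5-1, morc4-1, morc2-1 and morc1-2. The nrpe1 plants lack the largest subunit of RNA polymerase V, which makes the scaffold transcripts of RdDM. For ChIP-seq, MORC7 with a 3xFLAG tag was expressed from its own promoter in morc7-1 plants, so these plants have no untagged MORC7, and MORC4-FLAG was used likewise in morc4-1. The MORC7-FLAG transgene was crossed into nrpd1-4 (no RNA polymerase IV), nrpe1-11, both together, dms3-4 (a part of the complex that places polymerase V on chromatin) and met1-3 (no CG methyltransferase). In the nrpd1, nrpe1, double and dms3 backgrounds the plants were homo- or heterozygous for the transgene. Further libraries came from plants with no tagged protein, from plants that carry MORC7-FLAG and DMS3 fused to the zinc finger ZF108 (driven by the UBQ10 promoter), and from RNA polymerase II ChIP in hex and WT. All samples are labelled as floral tissue of plants aged 5 to 6 weeks, whereas the study's methods name younger seedlings for the RNA. Nothing in the labels says whether replicates came from separate sowings, so p-values measure the spread between these libraries only.

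In this pathway, intracellular receptors of the TNL class such as SNC1 and RPP4 detect pathogens and signal through EDS1 and its partner PAD4. Salicylic acid is then made from chorismate by SID2, the isochorismate synthase ICS1, and is perceived by NPR1, which with TGA factors switches on PR1, PR2 and PR5. SNC1 and RPP4 lie in a cluster of related receptor genes on chromosome 4 that is known for control by chromatin, and an overactive SNC1 gives dwarf plants with constant defence.

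The regulatory DNA of the genes on which the results turn is shown because MORC7 was measured at it and because EDS1, PAD4 and PR2 are set side by side below. Each sequence is the 250 bases before the annotated start of the gene, 5′ to 3′ on the gene's own strand, from the RefSeq assembly TAIR10.1. Capitals mark TTGAC, the core of the W-box bound by WRKY factors, and TGACG, the core of the site bound by TGA factors, searched on both strands (a match on the opposite strand reads GTCAA or CGTCA, and the motifs can overlap in letters).
SNC1, chr4:9505973-9506222, minus strand: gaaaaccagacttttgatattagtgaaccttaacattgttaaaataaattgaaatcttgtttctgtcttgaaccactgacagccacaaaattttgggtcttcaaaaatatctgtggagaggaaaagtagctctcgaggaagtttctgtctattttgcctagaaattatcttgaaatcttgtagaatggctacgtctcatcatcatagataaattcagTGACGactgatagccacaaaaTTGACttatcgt
EDS1, chr3:17758148-17758397, minus strand: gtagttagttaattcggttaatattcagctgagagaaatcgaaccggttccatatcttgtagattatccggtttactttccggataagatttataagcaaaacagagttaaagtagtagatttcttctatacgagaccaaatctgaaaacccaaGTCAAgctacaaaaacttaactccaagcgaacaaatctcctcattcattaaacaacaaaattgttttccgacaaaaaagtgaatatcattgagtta
PAD4, chr3:19430845-19431094, plus strand: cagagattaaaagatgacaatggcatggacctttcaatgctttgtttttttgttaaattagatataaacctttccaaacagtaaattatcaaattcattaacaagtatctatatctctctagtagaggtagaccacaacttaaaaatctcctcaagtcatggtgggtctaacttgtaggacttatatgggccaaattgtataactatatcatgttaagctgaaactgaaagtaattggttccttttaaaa
PR2, chr3:21189968-21190217, minus strand: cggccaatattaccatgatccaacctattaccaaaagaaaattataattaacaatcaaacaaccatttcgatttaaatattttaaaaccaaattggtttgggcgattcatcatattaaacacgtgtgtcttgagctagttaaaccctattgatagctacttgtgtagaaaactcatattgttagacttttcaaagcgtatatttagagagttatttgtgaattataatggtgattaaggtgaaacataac
SNC1 had TTGAC at bases -12 to -8 from its start and TGACG at -33 to -29. EDS1 had TTGAC on the opposite strand at -96 to -92. PAD4 and PR2 had neither motif in this window. Of the 8 genes searched (all but PR1), 3 had TTGAC (PR5 is the other) and 1 had TGACG, where 45.0% and 18.6% of 26711 protein-coding genes had them. In 1000 bases, 7 of the 8 had TTGAC and 3 had TGACG, beside 88.2% and 54.1% of protein-coding genes. A match is a string of letters and no measured binding site.

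The mutated genes went against the RNA-seq labels, so every group is named here by its label and no difference is assigned to hex or nrpe1 plants. In TPM, the share of a library's transcripts that come from a gene after scaling for its length, MORC1 ranged between 7.70 and 9.17 in the libraries labelled hex, between 1.77 and 2.06 in those labelled nrpe1 and between 7.42 and 8.08 in WT. NRPE1 ranged between 0.50 and 0.62 TPM in the libraries labelled hex, between 1.08 and 1.73 TPM in those labelled nrpe1 and between 1.27 and 1.74 TPM in WT. MORC2, MORC6 and MORC7 were likewise lowest in the libraries labelled nrpe1, MORC4 was highest there, and the table of the labelled nrpe1 replicate 2 was deposited again under a heading that reads hex-2. The tissue label was also not borne out, because the floral genes AP1, AP3, PI, SEP3 and AG summed to 1.38 to 3.06 TPM per library and 3 of them stayed below 1 TPM in every library. The leaf genes RBCS1A, CAB2 and LHCA1 summed to 31563 to 51220 TPM. TPM keeps no read totals, so the depth of each library is unknown. A difference in bulk RNA cannot be told apart from a difference in the share of cells that express a gene.

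The 9 genes spanned a wide range of levels per length. In WT, SNC1 averaged 50.3 ± 3.3 TPM and RPP4 47.8 ± 4.1 TPM (SD, n = 3 each), and their libraries overlapped. PR5, NPR1, EDS1 and PAD4 came next at 14.98 ± 7.72, 14.4 ± 1.6, 11.3 ± 2.1 and 10.7 ± 1.8 TPM, and none of these neighbours was set apart from the next beyond the spread of its libraries. SID2 at 7.17 ± 0.30 TPM lay below the lowest PAD4 library and overlapped PR2 at 5.70 ± 2.1 TPM. PR1, the usual reporter of salicylic acid signalling, was listed at 0 in all 3 WT libraries. The plot of TPM in every library shows the members in the order of the pathway.

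The receptor genes SNC1 and RPP4 were higher in the libraries labelled nrpe1 than in WT, by less than 2-fold. SNC1, a TNL receptor, had 54.2, 54.3 and 58.8 TPM in the libraries labelled hex, 55.0, 68.9 and 81.2 TPM in those labelled nrpe1, and 53.8, 47.4 and 49.7 TPM in WT. Every library of either labelled group was above every WT library, although labelled hex replicates 1 and 2 exceeded the highest WT library by less than 1 TPM. The log2 difference of SNC1 on the log2(TPM + 1) scale was 0.15 (SE 0.13, adjusted p = 0.928) for labelled hex minus WT and 0.42 (SE 0.13, adjusted p = 0.05, not below the threshold of 0.05) for labelled nrpe1 minus WT. RPP4, a TNL receptor that gives resistance to downy mildew, had 61.9, 60.2 and 70.3 TPM in the libraries labelled hex, 59.3, 74.1 and 75.7 TPM in those labelled nrpe1, and 52.4, 44.4 and 46.7 TPM in WT. Both labelled groups were above WT with no overlap between libraries. RPP4 rose 1.44-fold in labelled nrpe1 against WT (log2 difference 0.53, SE 0.12, adjusted p = 0.0376), and for labelled hex against WT the log2 difference was 0.42 (SE 0.12, adjusted p = 0.496). The coding sequences of SNC1 and RPP4 are identical at 85.8% of aligned bases, and those of RPP4 and RPP5, a paralog in the same cluster, at 92.0%. TPM of these genes can thus depend on how reads they share were assigned.

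EDS1 and PAD4, lipase-like proteins that form a complex downstream of TNL receptors, were measured in the same libraries, and PAD4 passed the test in labelled nrpe1 against WT while EDS1 did not. EDS1 had 10.8, 10.9 and 17.4 TPM in the libraries labelled hex, 15.1, 15.1 and 11.7 TPM in those labelled nrpe1, and 13.6, 10.6 and 9.65 TPM in WT, and all groups overlapped. Its log2 difference was 0.17 (SE 0.20, adjusted p = 0.928) for labelled hex minus WT and 0.29 (SE 0.20, adjusted p = 0.271) for labelled nrpe1 minus WT. PAD4 had 10.2, 12.4 and 24.2 TPM in the libraries labelled hex, 17.8, 27.7 and 33.7 TPM in those labelled nrpe1, and 12.7, 10.2 and 9.29 TPM in WT. The libraries labelled nrpe1 lay above all WT libraries, and labelled hex replicates 1 and 2 lay within the WT range. PAD4 rose 2.28-fold in labelled nrpe1 against WT (log2 difference 1.19, 95% interval 0.48 to 1.9, adjusted p = 0.0393), and for labelled hex against WT the log2 difference was 0.42 (95% interval -0.29 to 1.13, adjusted p = 0.928). Reads of EDS1 can be shared with its neighbour AT3G48080, which is identical at 84.8% of aligned coding bases.

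SID2, which makes the isochorismate from which salicylic acid is built, had 7.43, 6.50 and 10.4 TPM in the libraries labelled hex, 9.46, 9.41 and 10.04 TPM in those labelled nrpe1, and 7.28, 7.41 and 6.83 TPM in WT. The libraries labelled nrpe1 lay above WT within a narrow band, with a log2 difference of 0.38 (95% interval 0.06 to 0.70, adjusted p = 0.074) that did not pass the test. NPR1, the salicylic acid receptor and co-activator, had 11.3, 12.4 and 16.0 TPM in the libraries labelled hex, 14.9, 17.4 and 16.4 TPM in those labelled nrpe1, and 15.9, 14.5 and 12.7 TPM in WT. NPR1 is the steadiest of the 9 by its log2 differences from WT, which were -0.12 (SE 0.13, adjusted p = 0.928) in labelled hex and 0.17 (SE 0.13, adjusted p = 0.345) in labelled nrpe1.

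Among the response genes, PR2 rose in labelled nrpe1 against WT, PR1 was above 1 TPM in some libraries of either labelled group only, and PR5 overlapped between all groups. PR2, a beta-1,3-glucanase that acts on fungal cell walls, had 4.68, 4.29 and 17.1 TPM in the libraries labelled hex, 14.6, 20.6 and 16.2 TPM in those labelled nrpe1, and 7.99, 5.38 and 3.73 TPM in WT. All libraries labelled nrpe1 and 1 of 3 labelled hex were above the WT range. PR2 rose 2.78-fold in labelled nrpe1 against WT (log2 difference 1.47, 95% interval 0.48 to 2.47, adjusted p = 0.045), and for labelled hex against WT the log2 difference was 0.34 (95% interval -0.66 to 1.33, adjusted p = 0.934). PR1, a secreted protein of the CAP family, had 0.06, 0 and 11.9 TPM in the libraries labelled hex, 4.44, 9.84 and 0.06 TPM in those labelled nrpe1, and was listed at 0 in every WT library. PR1 was thus above 1 TPM in 3 libraries of 9, and it passed the filter on low values only through these. No fold is given against WT, and neither comparison passed the test (adjusted p = 0.928 for labelled hex and 0.174 for labelled nrpe1). PR5, a thaumatin-like protein, had 16.7, 11.4 and 24.7 TPM in the libraries labelled hex, 20.4, 26.5 and 10.9 TPM in those labelled nrpe1, and 23.9, 10.3 and 10.8 TPM in WT. The groups of PR5 overlapped throughout, and its log2 differences from WT were 0.26 (SE 0.41, adjusted p = 0.939) in labelled hex and 0.36 (SE 0.41, adjusted p = 0.504) in labelled nrpe1.

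**Figure D1:**
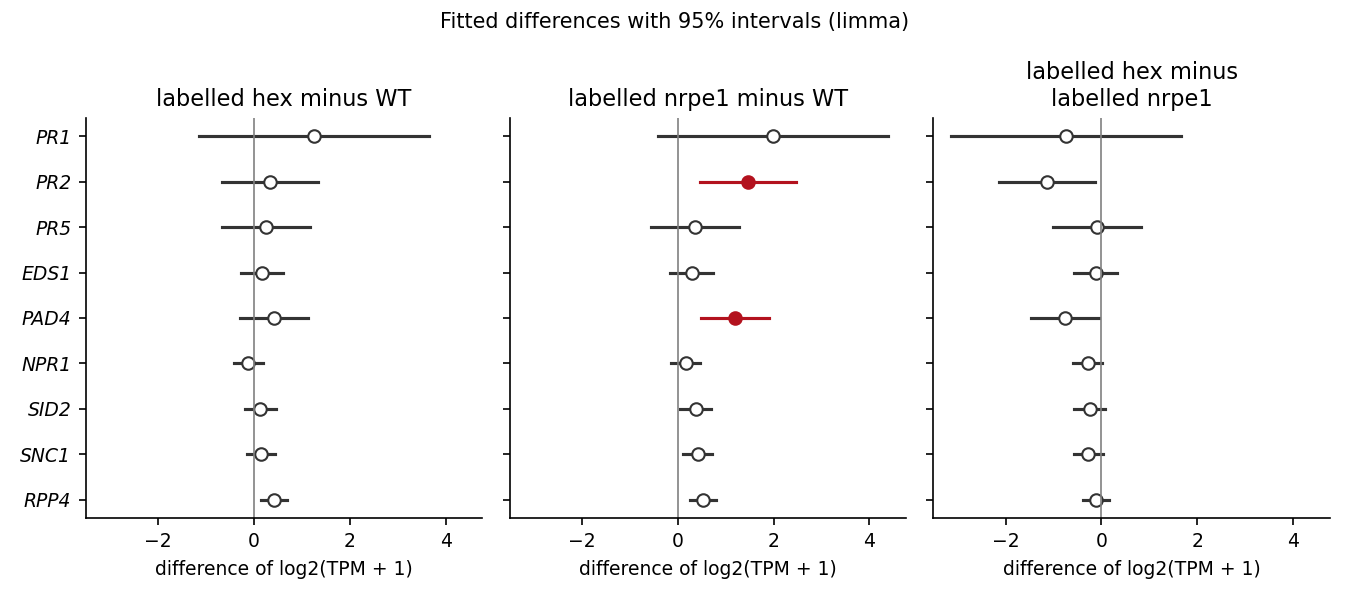
Difference of log2(TPM + 1) of each gene (horizontal axis, the same scale in all panels) for labelled hex minus WT, labelled nrpe1 minus WT and labelled hex minus labelled nrpe1, with points for the limma estimate, lines for its 95% interval and filled points for genes that passed the test with a 2-fold change. The filled points are PR2 and PAD4 in labelled nrpe1 minus WT, at 1.47 and 1.19.

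A gene was called where its Benjamini-Hochberg adjusted p (limma, over 17459 genes tested) was below 0.05 and its change at least 2-fold. For labelled nrpe1 against WT, 2 of the 9 genes were called higher, PAD4 and PR2, and 0 lower, beside 2.31% (404 genes) called higher and 1.63% (284 genes) called lower over all genes. With quantile normalization the split over all genes was 273 higher and 332 lower, PAD4 was still called and PR2 was not (adjusted p = 0.0625). Without the 2-fold minimum RPP4 joined them, 3 of 9, beside 15.3% of all genes higher at this adjusted p. PR1 is left out of the next counts, since it passed the filter only through the libraries where it was high. Of the other 8 genes, 5 had every labelled nrpe1 library above every WT library (PR2, PAD4, SID2, SNC1 and RPP4), beside 30.3% of all genes. The median log2 difference of the 8 was 0.40, beside 0.09 over all genes. The calls of PAD4 and PR2 were near the threshold. Both were lost when either of labelled hex replicates 1 and 2, either of labelled nrpe1 replicates 2 and 3, or any WT replicate was left out, with adjusted p of 0.0529 to 0.133 for PAD4 and 0.054 to 0.139 for PR2. Both were kept without labelled hex replicate 3 and without labelled nrpe1 replicate 1. RPP4 likewise lost its adjusted p below 0.05 in 7 of the 9 fits that left out 1 library (0.0529 to 0.133), with no filter on low values (0.0563) and with only the 6 libraries compared (0.0533).

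For labelled hex against WT, 0 of the 9 genes were called in either direction by limma, and 1 (RPP4) had an unadjusted p below 0.05 and was higher, beside 3.55% of all genes. Over all genes 0.235% (41 genes) were called higher and 0.0859% (15 genes) lower. In SNC1 and RPP4, 2 of 9, every labelled hex library was above every WT library, beside 11.3% of all genes. Without PR1 the median log2 difference of the other 8 was 0.22, beside 0.03 over all genes, and it rested on labelled hex replicate 3, which had the highest value of its group for all 9 genes. Without this library the log2 differences from WT were -0.253 for NPR1, -0.24 for PR2, -0.04 for EDS1, -0.039 for SID2 and -0.005 for PR5. They were 0.04 for PR1, 0.07 for PAD4, 0.11 for SNC1 and 0.35 for RPP4.

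The labelled groups were also compared with each other, since both comparisons above use the same WT libraries and are no separate evidence. Without PR1 the median log2 difference of the other 8 was -0.26, beside -0.05 over all genes. None of the 9 was called by limma, 2 (PR2 and PAD4) were lower at an unadjusted p below 0.05, beside 17.7% of all genes, and over all genes 0.189% were called higher and 0.407% lower. The log2 differences were -1.14 (95% interval -2.14 to -0.14, adjusted p = 0.151) for PR2 and -0.77 (95% interval -1.48 to -0.06, adjusted p = 0.161) for PAD4. Without labelled hex replicate 3 both were called lower, at -1.71 (adjusted p = 0.0215) and -1.12 (adjusted p = 0.0434), and without labelled nrpe1 replicate 1 PAD4 was called at -1.02 (adjusted p = 0.0367). A higher level in labelled nrpe1 than in labelled hex is thus not shown with all libraries.

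The senescence markers SEN1 and NAP were higher in labelled nrpe1 than in WT, while SAG12 and SAG13 were too low to test. SAG13 overlapped between the labelled groups, at 0.52, 0.19 and 1.24 TPM in labelled hex and 0.33, 1.27 and 0.58 TPM in labelled nrpe1. The genes SAG12, SAG13, SEN1 and NAP had a summed level of 14.1, 12.8 and 27.8 TPM in the libraries labelled hex, 34.5, 81.6 and 64.7 TPM in those labelled nrpe1, and 6.81, 8.73 and 11.6 TPM in WT. Of these, SEN1 (log2 difference 2.55, adjusted p = 0.0171) and NAP (2.13, adjusted p = 0.0175), a transcription factor of leaf ageing, rose in labelled nrpe1 against WT. The leaf genes RBCS1A and CAB2 fell there by 0.68 and 0.43 on the log2 scale (adjusted p = 0.0386 and 0.0449). LHCA1, the third leaf gene, did not pass the test (log2 difference -0.125, adjusted p = 0.198). Labelled nrpe1 replicate 3 stood apart in markers of tapetum and pollen, whose sum was 29.4 TPM there (29.2 TPM of it VGD1, a pectin methylesterase of pollen) and 0.19 to 0.79 TPM in the other 8 libraries, and SAG12 was at 3.33 TPM there and listed at 0 in the others. This library had the highest level of PAD4, SNC1 and RPP4. Without it the log2 differences from WT were 1.00 for PAD4 (adjusted p = 0.114), 0.29 for SNC1 (0.134) and 0.47 for RPP4 (0.104). The part of either marker list in the levels of these genes and PR2 was not tested.

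The other genes of the pathway were listed by role, 62 in all, of which 52 were tested and 10 were too low. For labelled nrpe1 against WT, 2 (3.8%) were called higher, beside 2.31% of all genes, and 0 lower. Of the 52, 11 (21.2%) passed the adjusted p higher, beside 15.3% of all genes, and 25 (48.1%) had every labelled nrpe1 library above WT, beside 30.3%. The median log2 difference of the 52 was 0.45, beside 0.09 over all genes. CBP60G, a transcription factor that switches on SID2, had 1.67, 1.82 and 4.22 TPM in the libraries labelled hex, 5.27, 6.76 and 7.57 TPM in those labelled nrpe1, and 3.26, 1.96 and 1.92 TPM in WT. It was called higher in labelled nrpe1 against WT at a log2 difference of 1.17 (SE 0.27, adjusted p = 0.038). WRKY46, a defence transcription factor, had 2.99, 3.29 and 8.16 TPM in the libraries labelled hex, 5.69, 7.82 and 5.48 TPM in those labelled nrpe1, and 2.57, 2.21 and 2.14 TPM in WT. Every library of either labelled group was above WT, and WRKY46 was called in labelled nrpe1 against WT at a log2 difference of 1.14 (SE 0.29, adjusted p = 0.039). CBP60G was called in 5 of 14 alternatives and WRKY46 in 6 of 14.

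By role, 2 of 10 tested genes of salicylic acid synthesis and transport passed the adjusted p in labelled nrpe1 against WT (CBP60G and PAL3), 3 of 11 of NPR and TGA signalling (TGA1, TGA4 and TGA5), 2 of 8 EDS1 partners and helper receptors (ADR1-L1 and ADR1-L2), 3 of 9 WRKY factors (WRKY40, WRKY46 and WRKY60), and 1 of 4 regulators of SNC1 (SRFR1), where 15.3% of all genes passed in this direction. The genes in these brackets other than CBP60G and WRKY46 were named after their values were seen. None of the 3 genes of salicylic acid conversion, the 2 of systemic resistance or the 5 further responsive genes did. In WT these 5 were at 1116.3 ± 924.4 (PCC1), 122.3 ± 86.8 (ACD6), 48.3 ± 50.9 (LURP1), 27.8 ± 18.9 (WAK1) and 1.98 ± 1.99 TPM (PNP-A). GRX480 and PRB1 of the same list were too low to test, and like PR1 they were listed at 0 in WT. GRX480 reached at most 1.04 TPM, and PRB1 was at 0 in every library. The median log2 difference of the 5 tested responsive genes from WT was 0.757 in labelled nrpe1 (4 above 0 and 1 below). In labelled hex it was -0.975 (1 above 0 and 4 below). Over all genes, 10304 of 17459 were above 0 in labelled nrpe1 and 9885 in labelled hex. The limma interval of each of the 5 spanned 0 in both comparisons. In each of them labelled hex replicate 3 was the highest of its group, as for LURP1 at 1.94, 7.51 and 178.96 TPM. A fall of these 5 in labelled hex is thus not shown. For labelled hex against WT none of the 52 was called by limma, 5 were higher at an unadjusted p below 0.05 (beside 3.55% of all genes), and their median log2 difference was 0.09. For labelled hex against labelled nrpe1 none was called by limma, 2 were higher and 11 lower at an unadjusted p below 0.05 (beside 10.4% and 17.7% of all genes), and the median was -0.42.

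The receptor cluster that holds RPP4 and SNC1 was read gene by gene from AT4G16860 to AT4G16990, which are 17 genes on chromosome 4, 11 of them tested. A pseudogene beside RPP4 differed most from WT in the libraries labelled hex, where RPP4 and SNC1 themselves did not pass the test. This pseudogene, AT4G16870 (chr4:9483955-9488397, minus strand), lies past the 3′ end of RPP4 (chr4:9488466-9495837, minus strand). AT4G16870 had 58.2, 55.1 and 54.0 TPM in the libraries labelled hex, 21.3, 23.5 and 19.4 TPM in those labelled nrpe1, and 20.7, 17.4 and 21.0 TPM in WT. It rose 2.75-fold in labelled hex against WT (log2 difference 1.46, SE 0.10, adjusted p = 0.000159), in all 14 alternatives, while for labelled nrpe1 against WT the log2 difference was 0.11 (SE 0.10, adjusted p = 0.398). The difference between the labelled groups was itself called (log2 difference 1.35, adjusted p = 0.000166).

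In the libraries labelled nrpe1, AT4G16960, another gene of the cluster, had 2.22, 3.47 and 4.78 TPM, against 1.23, 0.66 and 0.70 TPM in WT, and 1.21, 1.2 and 2.75 TPM in the libraries labelled hex. AT4G16960 rose in labelled nrpe1 against WT (log2 difference 1.24, SE 0.27, adjusted p = 0.0376), though in 5 of 14 alternatives only. In the same comparison RPP4, RPP5 (log2 difference 0.38), AT4G16880 (0.64) and the non-coding AT4G16892 (0.46) passed the adjusted p below 2-fold. AT4G16980 fell by 0.60 and also passed. The adjusted p (limma) of these genes lay between 0.0376 and 0.0479, near the threshold of 0.05. Of the 11 tested genes of the cluster, 5 passed higher and 1 lower, beside 15.3% of all genes higher and 1340 of 17459 lower. RPP5, the paralog whose Ler allele gives resistance to downy mildew, had 65.7, 67.4 and 68.5 TPM in the libraries labelled hex, 64.7, 76.7 and 89.8 TPM in those labelled nrpe1, and 63.0, 54.9 and 58.0 TPM in WT.

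**Figure D2:**
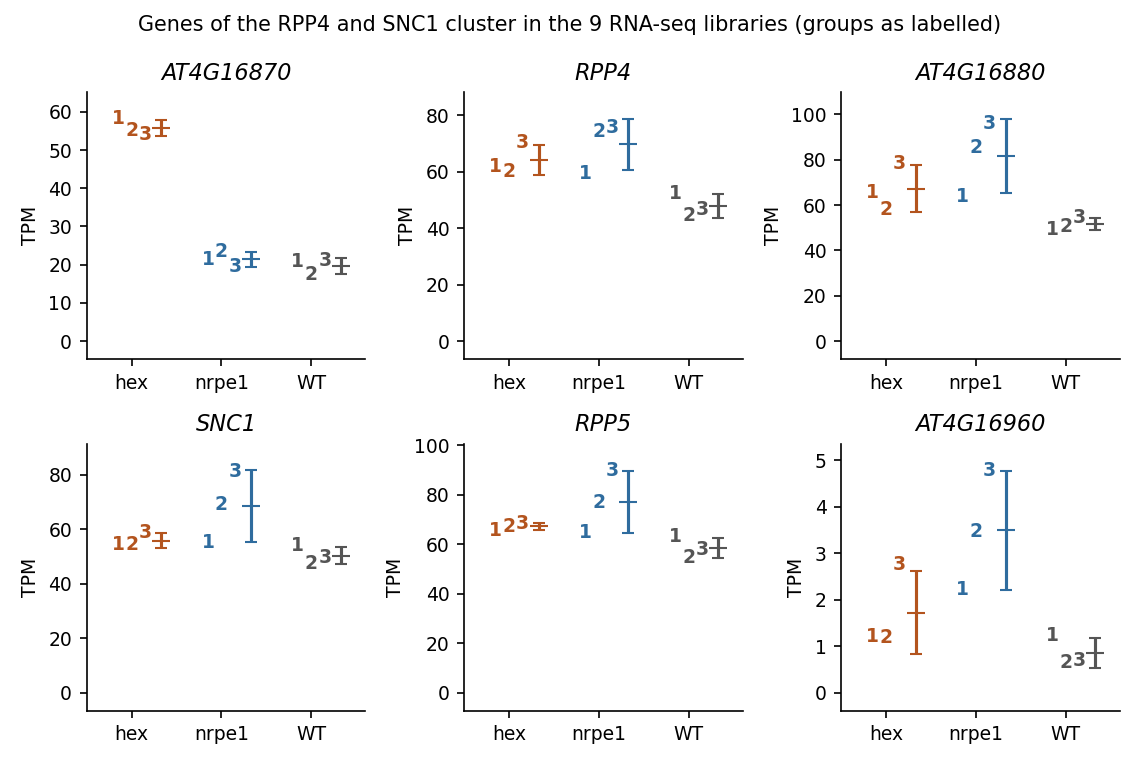
TPM of 6 of the 11 tested genes between AT4G16860 and AT4G16990 in each library (vertical axes, linear, a scale for each gene), in chromosomal order, with a digit for each library labelled hex, nrpe1 or WT (its replicate number) and a bar for the mean with SD. AT4G16870 lies at 54.0 to 58.2 TPM in the libraries labelled hex and at 17.4 to 23.5 TPM in all others.

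The genes most like PR1 over the 9 libraries, by the Pearson correlation of log2(TPM + 1) among tested genes outside the 9, were DLO1 (r = 0.981), a hydroxylase of salicylic acid, the chitinase gene AT2G43570 (r = 0.961) and WRKY38 (r = 0.961). DLO1 had 0.17, 0.24 and 3.20 TPM in the libraries labelled hex and 2.08, 3.09 and 0.60 TPM in those labelled nrpe1. In WT it had 0.40, 0.41 and 0.14 TPM, so it was high in the same 3 libraries as PR1. DLO1 and WRKY38, like PR1, reached 1 TPM in these 3 libraries alone. The filter on low values thus kept them only through these libraries, and their likeness to PR1 is partly set by it. The genes most like SNC1 were AT2G13290 (r = 0.997), WRKY4 (r = 0.996) and AT4G03260 (r = 0.991). The points are libraries of 3 groups with few values each, and the r is given as a measure of likeness alone.

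MORC7 was next located at the 9 genes from the peak lists. A MORC7 region was counted where the WT MORC7-FLAG lists had peaks of at least 2 of the 3 libraries in the same merged interval, counting peaks of fold enrichment above 2 at a q value below 0.01, and 6424 such regions were found with a median length of 1070 bp. Of the 9 genes, 3 had a region within 1 kb (EDS1, SNC1 and RPP4), beside 25.4% of 32835 annotated genes. PR1, PR2, PR5, PAD4, NPR1 and SID2 had none. RPP4 had no region where replicate 1 or replicate 3 was left out and both remaining libraries needed a peak, and EDS1 had none at a fold enrichment above 3 with a q value below 0.001. Of the other pathway genes 12 of 62 had a region, and of the cluster 8 of 17.

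The 3 genes differed in where the regions lay. EDS1 (chr3:17755329-17758147, minus strand) had a region of 616 bp at chr3:17757518-17758133, of which 441 bp were untranslated exon and 175 bp coding, so it lay inside the gene and did not reach the 250 bases shown above. SNC1 (chr4:9500271-9505972, minus strand) had 3 regions. One of these at chr4:9505377-9506677 crossed the start of the gene, with 705 bp upstream, 490 bp of untranslated exon and 106 bp coding, and it covered the whole SNC1 sequence shown above. The others were chr4:9502593-9504041 within the gene (973 bp coding and 476 bp intron) and chr4:9498952-9499454, which lay 817 bp past the 3′ end. RPP4 had a region of 7825 bp at chr4:9486590-9494414, across the 3′ end of the gene, with 2974 bp of coding sequence, 2529 bp of intron, 446 bp of untranslated exon and 1876 bp downstream. That region therefore also covered the pseudogene AT4G16870 in part.

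**Figure D3:**
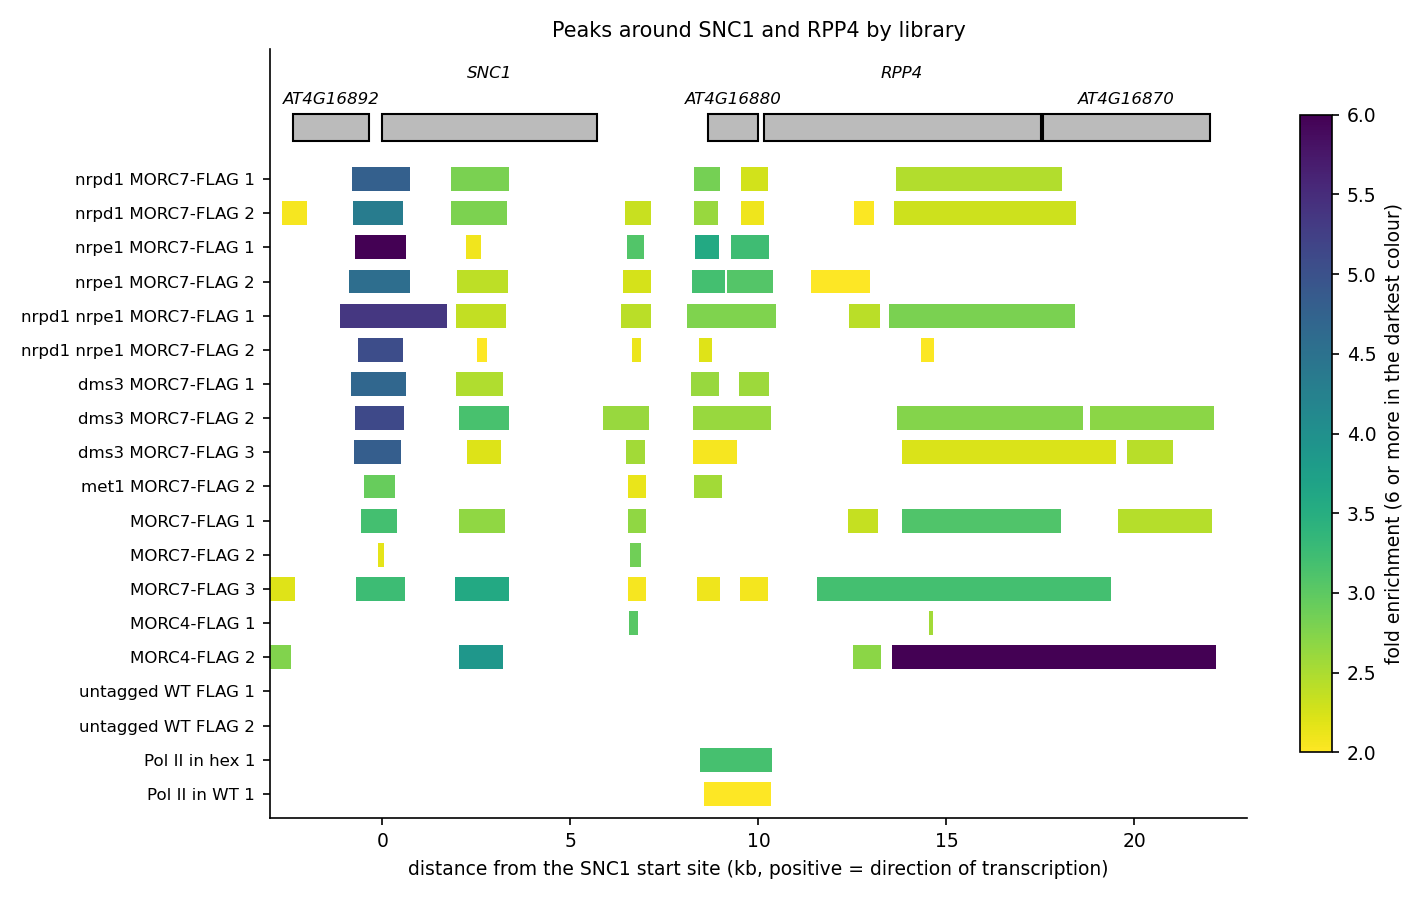
Peaks within 1 kb of the cluster genes drawn, by library (rows), against the distance in kb from the start of SNC1 in its direction of transcription, with genes as bars at the top and peaks as bars shaded by fold enrichment, and rows that name no mutant are WT for the mutations crossed in. The 9 libraries of nrpd1, nrpe1, nrpd1 nrpe1 and dms3 each have a peak at the start of SNC1, with fold enrichment of 4.33 to 8.56.

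At the start of SNC1 the MORC7 peak was present in the 9 libraries of nrpd1, nrpe1, their double mutant and dms3, with a higher fold enrichment than in WT. The fold enrichment of its peak, as the authors' peak caller gave it, was 8.56 and 4.57 in nrpe1, 4.79 and 4.33 in nrpd1, 5.37 and 5.07 in their double mutant, and 4.68, 5.11 and 4.82 in dms3, against 3.19, 2.16 and 3.25 in WT. Every mutant value was above every WT value. Of 1445 MORC7 regions with a peak in all 12 of these libraries, 27 (1.87%) had this order and 7 the opposite. The −log10 of the q value was 54.9 to 162.6 in the mutants and 2.9 to 59.6 in WT. Fold enrichment depends on the background of each list, and the lists held 4048 to 7786 peaks in these mutants and 7952 to 8259 in WT. By rank within each list the order was not complete. In nrpd1 28.7% and 31.2% of the list's peaks had a higher fold enrichment, against 28.9%, 85.7% and 43.6% in WT. In nrpe1, the double mutant and dms3 this share was 7.5% to 19.4%. In met1 the fold enrichment was 2.93, within the WT range, and in MORC7-FLAG plants with ZF108-DMS3 it was 3.15. Neither MORC4 library, neither library without a tag and neither polymerase II library had a peak in this region.

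**Figure D4:**
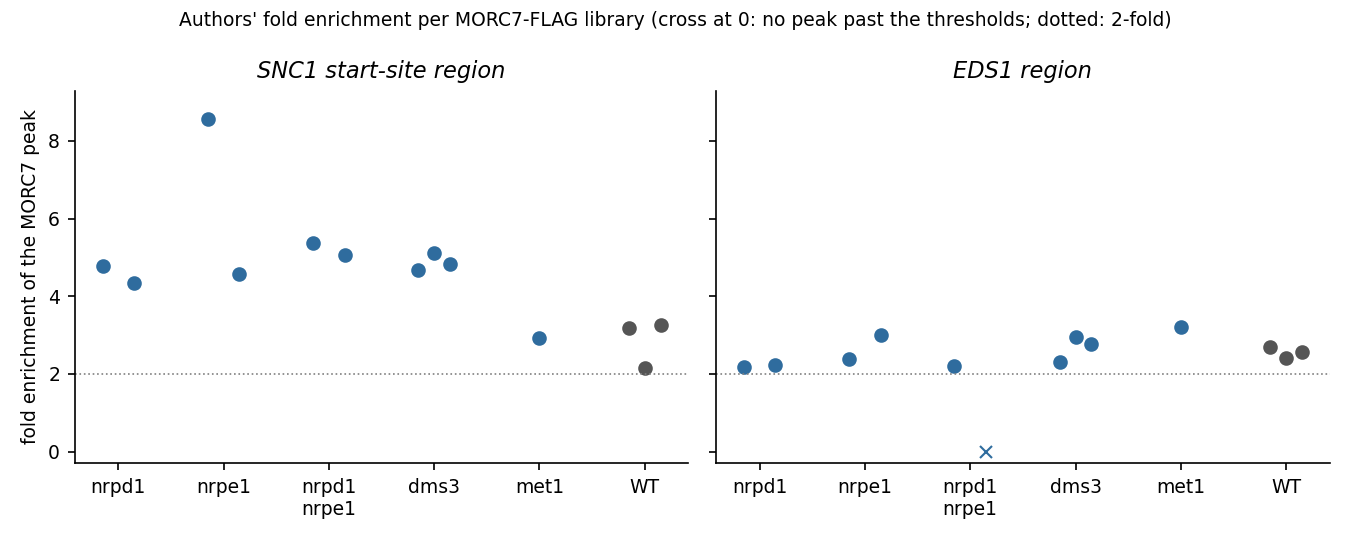
Fold enrichment of the highest peak in the MORC7 regions at the start of SNC1 (left panel) and in EDS1 (right panel) by library of MORC7-FLAG ChIP (vertical axis, linear), mutants to the left and WT to the right, with a cross at 0 where a list had no peak and a dotted line at 2-fold. At the start of SNC1 the 9 values of nrpd1, nrpe1, their double mutant and dms3 exceed the WT values of 2.16 to 3.25, and at EDS1 the mutants lie on both sides of WT.

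The MORC7 regions of EDS1 and RPP4 showed no such order, and neither did the other regions of SNC1. In the region within SNC1 the fold enrichment was 2.0 to 3.16 in these mutants, against 2.66, none and 3.59 in WT. In the region past the 3′ end of SNC1 it was 2.12 to 3.09 in the mutant lists with a peak, against 2.66, 2.86 and 2.05 in WT. There nrpd1 replicate 1 and dms3 replicate 1 had no peak. At EDS1 the fold enrichment was 2.39 and 2.99 in nrpe1, 2.17 and 2.23 in nrpd1, 2.21 and none in their double mutant, and 2.30, 2.96 and 2.78 in dms3, against 2.70, 2.4 and 2.57 in WT, so the mutants lay on both sides of WT. It was 3.20 in met1. In the RPP4 region the fold enrichment was none and 2.00 in nrpe1, 2.46 and 2.31 in nrpd1, 2.80 and 2.03 in their double mutant, and none, 2.74 and 2.22 in dms3, against 3.10, none and 3.20 in WT. The 7 mutant values were below the 2 WT values, with lists that lacked a peak on both sides. At the start of RPP4 itself, between RPP4 and its neighbour AT4G16880, a peak was called in 7 of the 9 libraries of these mutants and in 1 of 3 in WT. Its fold enrichment was 3.24 and 3.07 in nrpe1, 2.28 and 2.1 in nrpd1, 2.78 and none in their double mutant, and 2.58, 2.61 and none in dms3, against 2.07 in WT replicate 3 and none in the others.

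At 2 other starts in the cluster a peak was also called in more of these mutant libraries than WT libraries. Both starts were singled out after their values were seen. The start of SNC1 had a peak in all 9 mutant and all 3 WT libraries, so what differed there was the fold enrichment, another measure. RPP5 (AT4G16950) had a peak over its start in all 9 libraries of nrpd1, nrpe1, their double mutant and dms3, with a fold enrichment of 2.01 to 3.78, against none of the 3 WT libraries. Of all 32835 genes, 5 (0.0152%) had a peak over the start in these 9 libraries and in none of WT. AT4G16880 had one in the same 9 libraries at 2.05 to 3.58, against WT replicate 3 alone at 2.1, which is within the range of the mutants. In met1 the values were 2.15 at RPP5 and 2.56 at AT4G16880.

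Counted library by library, the same 3 genes returned. A peak within 1 kb was present at EDS1, SNC1 and RPP4 in both nrpd1 lists (21.7% and 24.3% of all genes had a peak in these lists), in both nrpe1 lists (17.2% and 22.5%), in nrpd1 nrpe1 replicate 1 (21.1%) and in all dms3 lists (18.0%, 27.5% and 19.1%). EDS1 was missing in nrpd1 nrpe1 replicate 2 (11.9%), the list with the fewest peaks of these, and RPP4 in WT MORC7 replicate 2 (23.4%), while WT replicates 1 and 3 had all 3 genes (27.3% and 29.2%). In met1 (22.3%), where a single list was analysed, EDS1, SNC1 and PAD4 had a peak and RPP4 did not. The PAD4 peak in met1 spanned chr3:19430593-19431474 across the start of the gene, with a fold enrichment of 2.09, and was found in no other list.

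MORC4-FLAG peaks were found within 1 kb of SNC1 and RPP4 in both lists (6.24% and 19.2% of all genes). At SNC1 the 2 lists shared no peak. That of replicate 1 lay 848 bp past the 3′ end, and that of replicate 2 lay within the gene. At RPP4 the peak of MORC4 replicate 2 spanned 8626 bp from AT4G16870 into the gene at a fold enrichment of 6.29, while that of replicate 1 spanned 103 bp at 2.55. MORC4 replicate 2 had a further peak 589 bp upstream of NPR1 (2.42). In plants with ZF108-DMS3 the MORC7-FLAG list had the same 3 genes (32.1%), and the list for ZF108-DMS3 itself (50.9%) had EDS1 and SNC1 and, with no MORC7 peak, PR1 (3.96 upstream and 3.12 past the 3′ end) and PR2 (4.08). In plants without a tag, replicate 1 had no peak at the 9 genes (1.3%) and replicate 2 had 1 (2.84%), past the 3′ end of SID2. HA ChIP of plants without ZF108-DMS3 had 8 peaks in all, none at the 9 genes. RNA polymerase II peaks, 1 library each, were at RPP4 and NPR1 in hex (42.8%) and at RPP4 and SID2 in WT (44.4%). The peak in hex within NPR1 (2.23) and that in WT at the 3′ end of SID2 (2.03) were near the threshold of 2. The polymerase II peak counted at RPP4 covered the whole of AT4G16880 and reached 223 bp into the 5′ end of RPP4 in hex and 194 bp in WT. Its summit lay in AT4G16880, at base -865 from the start of RPP4 in hex and -937 in WT, and its fold enrichment was 3.18 in hex and 2.01 in WT, with no replicate check.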

How the data were processed

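Of the RNA-seq, the authors deposited TPM for each gene and library. The software and annotation behind these tables are not given in the sources used here for these libraries. The submitters' processing notes list Bowtie2 2.1.0, RSEM 1.3.1, SAMtools 1.9, MACS2 2.1.1 and BSMAP 2.90. For ChIP-seq, per the study's methods, the authors used Bowtie2 to align reads to TAIR10, discarded reads that were duplicates or that did not match uniquely and perfectly, and ran MACS2, and they deposited 1 list per library with the fold enrichment and the −log10 of the q value of each peak. The control of each call is not given in the sources used here. Repeated entries, found in the lists of WT MORC7 replicate 1 and of dms3 replicates 2 and 3, were counted once. The RNA-seq table labelled nrpe1 replicate 2 holds its values in 2 copies with different headings, and 1 was read. No read totals were used, so depth is unknown and no counting interval is given.

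Samples were grouped by their labels, and no library was regrouped. TPM was tested as log2(TPM + 1) in R 4.3.3 by limma 3.58.1, with lmFit on all 9 libraries together and the trend option of eBayes. The fit covered 17459 genes that reached 1 TPM in 3 or more libraries, and p-values were adjusted by Benjamini-Hochberg over all of them. Fold changes on this scale understate the change of low genes. The procedure was tested on simulated data. Peaks of the nuclear genome were used if their fold enrichment exceeded 2 at a q value under 0.01. Gene positions and sequences come from the RefSeq annotation and genome of TAIR10.1, in which 99.4% of 2224 gene models of the study lay inside the gene of the same locus. Peaks were described with no test, in Python 3.11.15 with pandas 2.3.3, coding sequences were aligned with Biopython 1.88, and plots were drawn with matplotlib 3.10.9.

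Named genes were the 9 members, the mutated genes, the genes from AT4G16860 to AT4G16990, up to 8 called genes of the other pathway lists per comparison, and the 3 tested genes most correlated with PR1 and with SNC1. The members and lists were chosen with earlier results of these data known. Alternatives were a pseudocount of 0.1, no filter, quantile normalization, a replicate block, only the 6 libraries compared, each library left out, and for peaks all deposited peaks, a q value below 0.001 with a fold enrichment above 3, overlap with the gene, 2 kb, and a peak in any library. The DNA upstream of PR1 is not reported here. The suvh29 and cross-generation MORC7-FLAG ChIP libraries, met1 MORC7-FLAG ChIP replicate 1, the RNA-seq of MORC7-FLAG and met1 MORC7-FLAG plants and DNA methylation were not analysed here.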

Additional observations from a re-analysis of the deposited data

How the results depend on the processing

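For labelled nrpe1 against WT, the 2 genes called higher became 0 with no filter on low TPM, 1 with quantile normalization and 0 with only the 6 libraries compared, and between 0 and 2 when each library was left out in turn. With a pseudocount of 0.1 both were called. For labelled hex against labelled nrpe1, the genes called lower were 0, and between 0 and 2 when each library was left out. Without labelled hex replicate 3 the sign of labelled hex minus WT turned for PR2 (-0.24), PR5 (-0.005), EDS1 (-0.04) and SID2 (-0.039). Over all libraries left out, these ranged up to 0.649 for PR2, 0.629 for PR5, 0.302 for EDS1 and 0.265 for SID2. The sign of labelled hex minus labelled nrpe1 turned for PR5 without labelled hex replicate 2 (0.158) and without labelled nrpe1 replicate 2 (0.159), with a lowest value of -0.443. The cause was not tested. Over all genes, 404 called higher and 284 lower in labelled nrpe1 against WT became 100 and 13 with no filter, 92 and 13 with only the 6 libraries, and 43 to 845 and 5 to 788 when libraries were left out. For labelled hex against labelled nrpe1, 33 and 71 became 25 to 428 and 53 to 526.

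Replicate numbers were not treated as pairs in the main fit, since the labels do not say what a number marks. The deviations of same-numbered libraries correlated between -0.35 and 0.60, with the highest value for labelled hex and labelled nrpe1 replicate 1. Whether some numbers mark a shared batch was not tested. With the replicate number as a block, 2 genes were still called in labelled nrpe1 against WT and 0 in the other comparisons, while over all genes labelled hex against labelled nrpe1 gave 56 higher and 163 lower. The number of genes with a MORC7 region was 2 or 3 under every alternative run. The depth of the libraries is unknown, so values near 0 TPM such as PR1 in WT carry no limit of detection.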
